A study of Mus musculus with 6 samples.

Results

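p53, the transcription factor encoded by Trp53, and 9 genes listed as its direct targets were followed in mouse RENCA cells. Cells with and without forced expression of AQP1 were compared. Whether p53 activates each of the 9 genes directly in mouse cells was not tested. The 9 targets were Mdm2, Ccng1, Zmat3, Ddb2, Phlda3, Trp53inp1, Gdf15, Btg2 and Sesn1. The 10 genes were taken by gene symbol from a table of 78298 genes, and the list was drawn up with earlier results of these data known. All 10 passed the filter on low counts that kept 15522 genes. RENCA is an established mouse renal adenocarcinoma line. RENCA cells received a lentivirus that carried AQP1, a water channel of the cell membrane (oe-AQP1, 3 samples), or a negative control lentivirus (oe-NC, 3 samples). From 48 h after transduction, both groups were kept in puromycin (2 μg/mL, 14 days) so that cells with the vector survived, and their RNA was then sequenced. Both groups thus carried a vector and had been through the same selection, and no cells without a vector were analysed here. In the study's methods a ubiquitin C promoter drove the transgene. The labels describe stably transduced, selected lines, and neither source says whether the 3 samples of a group came from separate transductions. The design calls them biological replicates. The p-values set the difference between the groups against the spread between these samples. If the samples of a group came from a single transduction, the p-values do not cover differences between separate transductions.

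p53 is held at a low level in unstressed cells, mainly because Mdm2 marks it for degradation. DNA damage and other stresses release it, and it then binds response elements in or near its target genes and raises their transcription. The targets act in feedback on p53, in arrest of the cell cycle, in DNA repair, in cell death and in metabolism. Because p53 is controlled largely at the protein level, the level of Trp53 mRNA is not a measure of p53 activity, and neither p53 protein nor its binding was measured in these files.

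A p53 response element is built from a pair of decamers, each with 3 purines, a core of C, 2 bases of A or T, and G, and then 3 pyrimidines. The sequences below are shown because they place this motif relative to the start sites of genes whose levels are reported. In the GRCm39 assembly, within 2500 bases on either side of the start of the canonical transcript, 3 of the 10 genes held an abutting pair of decamers with at most 1 mismatch outside the cores, against 0.658% of the windows of all tested genes. The decamer pattern reads the same on both strands, and the sequences are given 5′ to 3′ on the strand of the gene, with the 2 cores in capitals. The pair in Ccng1 lies at chr11:40645763-40645782 on the minus strand, 356 bases after the start, in intron 1, and has 1 mismatch. The pair in Gdf15 lies at chr8:71084616-71084635 on the minus strand, 476 bases after the start, in an untranslated exon, and has 1 mismatch. The pair in Zmat3 lies at chr3:32418480-32418499 on the minus strand, 1409 bases after the start, in intron 1, and has 0 mismatches.
Ccng1: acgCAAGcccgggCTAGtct
Gdf15: tgaCTTGcctgaaCTTGcct
Zmat3: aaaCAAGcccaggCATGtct
Single decamers without a mismatch stood in the 250 bases before the start of 4 of the 10 genes, against 6.53% of all such windows. They are shown with 10 bases on either side and the decamer in capitals. The Ccng1 stretch is at chr11:40646279-40646308 on the minus strand, the Mdm2 stretch at chr10:117546830-117546859 on the minus strand, the Sesn1 stretch at chr10:41763252-41763281 on the plus strand and the Trp53inp1 stretch at chr4:11156260-11156289 on the plus strand.
Ccng1: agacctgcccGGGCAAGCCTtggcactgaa
Mdm2: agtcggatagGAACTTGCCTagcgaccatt
Sesn1: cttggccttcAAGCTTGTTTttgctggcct
Trp53inp1: tttgttgcccGGGCTTGTTTctgccccggg
Ccng1 was the gene with both a single decamer before its start and a pair after it. A match to these letters is a description of the sequence and does not show that p53 binds there. Trp53, Ddb2, Phlda3 and Btg2 had no match of either kind, which says only that the letters are not in those windows.

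Total expected counts per sample ran from 18385714 to 21920899. Aqp1 itself was at 387 ± 4.75 CPM (SD, n = 3) in oe-AQP1 and at 1.86 ± 0.423 CPM in oe-NC, as the labels say. CPM, the usual depth-scaled unit, is a count divided by the TMM-scaled library size. oe-NC sample 1 stood apart from its group: the chi-square per gene was 9.47 and 11.1 against the other oe-NC samples, where every other pair within a group was at 1.71 to 2.04. Results that rest on this sample are therefore given with and without it. Of the epithelial and renal markers, Krt8 and Pax8 had at least 5969 and 3054 counts in every sample, while Epcam and Umod had 0 and Slc34a1 at most 1. The leukocyte markers Ptprc, Adgre1 and Cd3e had at most 3 counts, but Cd68 had 576 to 777, Lyz2 234 to 361, Cd14 229 to 269 and Csf1r 56 to 202. Of stroma and vessels, Pdgfra, Dcn, Cdh5 and Kdr had at most 1 count, but Col1a1 had 246 to 509 and Pecam1 13 to 35. Of 7 epithelial markers tested, 4 were lower in oe-AQP1 (summed level 697 to 729 CPM against 831 to 915 CPM in oe-NC). Of 8 leukocyte markers 4 could be tested and 2 were lower (59.0 to 62.0 against 69.2 to 71.1 CPM), and of 6 markers of stroma and vessels 2 could be tested and 1 was lower (13.3 to 14.3 against 19.0 to 27.2 CPM). Under the rule used for all these counts, given below, 16.0% of all genes tested were higher and 16.6% lower. All 15 genes of an interferon list were higher, with summed levels of 11800 to 11900 CPM against 2250 to 2330 CPM. Their part in the results below was not tested. In RNA from whole cultures, fewer cells that express a gene and less RNA of it per cell cannot be told apart.

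The p53 genes did not move in 1 direction. Ddb2, a DNA damage recognition factor, doubled in oe-AQP1 cells, Trp53 rose by 14.4%, Ccng1 fell by 13.1% and Zmat3 fell by 14.2%. The other 6 genes, among them Mdm2, did not pass the test. In limma-voom, with FDR as the Benjamini-Hochberg adjusted p-value over all genes tested, 2 of the 10 genes were higher and 2 lower at an FDR under 0.05. Over all 15522 genes, 16.0% were higher and 16.6% lower under the same rule, so that 32.5% were called, and 4 of 10 is near that share. With the study's further requirement of an absolute log2 fold change (log2FC, oe-AQP1 against oe-NC) above 1, Ddb2 alone remained, where 5.23% of all genes did (4.39% higher and 0.844% lower). The median log2FC of the 10 genes was -0.03, and that of all genes tested was 0.002.

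**Figure D1:**
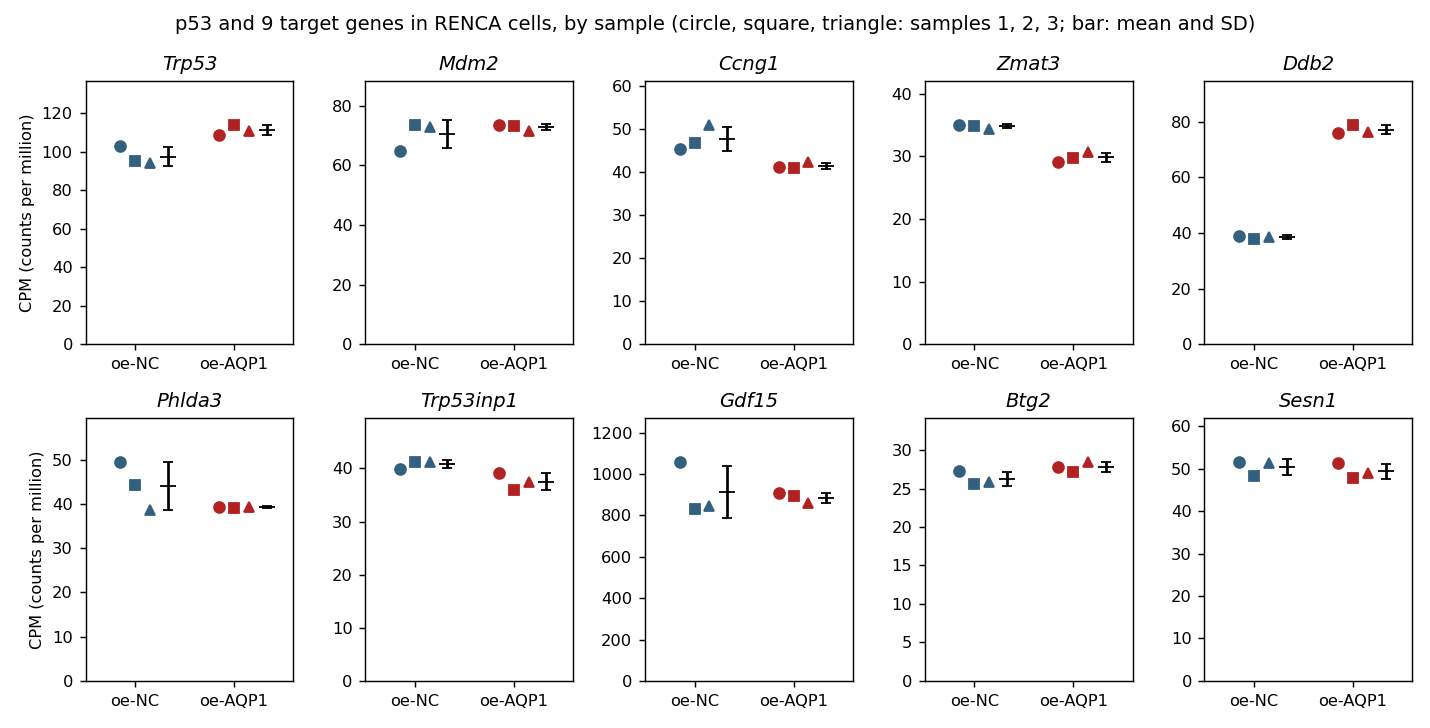
Level of p53 and 9 targets in each of the 6 samples, in CPM on separate axes, with 1 point per sample and a bar for the group mean and SD. The groups lie apart for Trp53, Ccng1, Zmat3, Ddb2 and Trp53inp1 and overlap for the other 5 genes.

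Trp53 (ENSMUSG00000059552, chr11:69469669-69482701, plus strand) was at 109, 114 and 111 CPM in oe-AQP1 samples 1 to 3 and at 103, 95.3 and 94.2 CPM in oe-NC samples 1 to 3. Every oe-AQP1 sample was above every oe-NC sample, and the highest control was oe-NC sample 1. The means were 111 ± 2.54 and 97.5 ± 4.85 CPM (SD, n = 3 each), with log2FC = 0.19, SE 0.0465 and FDR = 0.00954 by limma-voom. The 95% confidence interval of the log2FC ran from 0.09 to 0.30. Without oe-AQP1 sample 2 the log2FC was 0.18 and the FDR 0.057, so the call was lost, and without oe-NC sample 1 the log2FC was 0.24 with an FDR of 1.13e-05. Wrap53, which overlaps Trp53 on the opposite strand, had a log2FC of 0.03 (FDR = 0.767, limma-voom). The sources do not state whether strand was used in counting. How reads in a stretch shared by a gene and its antisense partner were assigned is therefore not known.

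Mdm2 (ENSMUSG00000020184, chr10:117524780-117546730, minus strand) encodes the ubiquitin ligase that limits p53 and is itself a p53 target. It stood at 73.6, 73.1 and 71.7 CPM in oe-AQP1 and at 65.0, 73.6 and 72.9 CPM in oe-NC. The groups overlapped, and the one low value was that of oe-NC sample 1. The log2FC was 0.05 (SE 0.0543, FDR = 0.535, limma-voom), with a 95% confidence interval from -0.07 to 0.17. Without oe-NC sample 1 the log2FC was -0.01 with an FDR of 0.877. A change of Mdm2 was therefore not detected, and the interval bounds what these 6 samples could hide.

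Ccng1 (ENSMUSG00000020326, chr11:40639377-40646148, minus strand) encodes cyclin G1, which brings a phosphatase to Mdm2 and so also acts in feedback on p53. It was at 41.2, 40.8 and 42.2 CPM in oe-AQP1 and at 45.4, 46.6 and 50.9 CPM in oe-NC. The groups did not overlap, and oe-NC sample 3 was the highest. The means were 41.4 ± 0.711 and 47.6 ± 2.87 CPM, with log2FC = -0.20, SE 0.056 and FDR = 0.0194. The call was lost when any of 4 samples was left out: the FDR was 0.0675, 0.0807 and 0.0518 without oe-AQP1 samples 1, 2 and 3, and 0.0654 without oe-NC sample 3. The log2FC stayed between -0.24 and -0.15 in all 6 of these fits. Nudcd2, on the opposite strand and overlapping, had a log2FC of -0.06 (FDR = 0.516).

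Zmat3 (ENSMUSG00000027663, chr3:32388941-32420163, minus strand) encodes a zinc finger protein that binds RNA and is a long-known target of p53. Its level was 29.1, 29.7 and 30.6 CPM in oe-AQP1 and 35.0, 34.9 and 34.4 CPM in oe-NC. The groups were well apart, and the samples within each were close together, including oe-NC sample 1. The means were 29.8 ± 0.783 and 34.8 ± 0.294 CPM, with log2FC = -0.22, SE 0.0516 and FDR = 0.00853. Zmat3 was called without each of the 6 samples in turn, with log2FC from -0.24 to -0.20. Zmat3 is also the gene whose decamer pair had 0 mismatches, and whether p53 acts through that pair was not tested.

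Ddb2 (ENSMUSG00000002109, chr2:91040809-91078878, minus strand) encodes a subunit of the complex that recognises ultraviolet damage in DNA for nucleotide excision repair. It was at 76.0, 78.9 and 76.5 CPM in oe-AQP1 and at 39.1, 37.8 and 38.5 CPM in oe-NC. These levels came from rounded counts of 1502, 1735 and 1572 against 768, 690 and 821. The gap between the groups was many times the spread within them, and oe-NC sample 1 was not set apart. The means were 77.1 ± 1.57 and 38.5 ± 0.689 CPM, with log2FC = 1.00, SE 0.0457 and FDR = 8.18e-08, and the 95% confidence interval was 0.90 to 1.10. The log2FC was 0.99 to 1.01 in the fits without 1 sample, and Ddb2 was called in all 6 of them. The log2FC lay at the study's threshold of 1 and came under it without oe-AQP1 sample 2 (0.986), without oe-NC sample 2 (0.987) and with no filter on low counts (0.985). The deposited counts of Ddb2 were fractional in all 6 samples, and the sources do not say how such fractions arose. Of other genes named below, Cop1, Rchy1, Trp53bp1 and Tap1 also had fractional counts in all 6 samples, Aldh4a1 in 4 and Cdkn1a in 2. On the opposite strand, Acp2 overlaps Ddb2 and ranged over 887 to 1017 counts in the oe-AQP1 samples against 817 to 1066 (log2FC = -0.06, FDR = 0.445). The long non-coding RNA A330069E16Rik, also on the opposite strand, had 105 to 124 counts against 77 to 98 (log2FC = 0.37, FDR = 0.0391). The part of these overlaps in the values of Ddb2 was not tested.

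Phlda3 (ENSMUSG00000041801, chr1:135693809-135697686, plus strand) encodes a protein that competes with the kinase Akt for membrane lipids and so restrains survival signals. It was at 39.4, 39.0 and 39.4 CPM in oe-AQP1 and at 49.6, 44.2 and 38.7 CPM in oe-NC. The oe-NC samples were spread wide around the tight oe-AQP1 values and overlapped them. The log2FC was -0.16 (SE 0.081, FDR = 0.167). It was -0.07 (FDR = 0.361) without oe-NC sample 1 and -0.26 (FDR = 0.017) without oe-NC sample 3, so the value rested on which control was kept.

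Trp53inp1 (ENSMUSG00000028211, chr4:11156412-11175230, plus strand) encodes a nuclear protein that aids p53 in the activation of cell death genes. It was at 39.1, 36.0 and 37.5 CPM in oe-AQP1 and at 39.9, 41.3 and 41.3 CPM in oe-NC. The groups did not overlap, but the gap between them was small beside the range within oe-AQP1. The log2FC was -0.12 (SE 0.0526, FDR = 0.103), and without oe-NC sample 1 it was -0.14 with an FDR of 0.0351. Trp53inp1 is thus 1 of the 5 genes whose groups did not overlap, which was so for 47.3% of all genes tested, and the only one of these 5 that did not pass the test with all samples.

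Btg2 (ENSMUSG00000020423, chr1:134002908-134015033, minus strand) encodes an antiproliferative protein that takes part in removing the poly(A) tail of mRNA. It was at 27.8, 27.1 and 28.5 CPM in oe-AQP1 and at 27.3, 25.6 and 25.9 CPM in oe-NC. The groups overlapped through oe-NC sample 1, and the log2FC was 0.08 (SE 0.0569, FDR = 0.303), with a 95% confidence interval from -0.04 to 0.21. Btg2 is also an immediate early gene, a class that cells raise quickly after growth signals. Of 12 tested immediate early genes, 7 were higher and 1 lower in oe-AQP1, with a median log2FC of 0.34. The shares over all genes tested were 16.0% higher and 16.6% lower.

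Sesn1 (ENSMUSG00000038332, chr10:41685931-41784423, plus strand) encodes sestrin 1, an inhibitor of mTORC1 signaling. It was at 51.4, 47.8 and 49.0 CPM in oe-AQP1 and at 51.7, 48.2 and 51.4 CPM in oe-NC. The groups overlapped almost fully. The log2FC was -0.03 (SE 0.0517, FDR = 0.69), with a 95% confidence interval from -0.15 to 0.08. Cep57l1, which overlaps Sesn1 on the opposite strand, had a log2FC of 0.01 (FDR = 0.94, limma-voom). The long non-coding RNA ENSMUSG00000124667 overlaps it on the same strand. That RNA had 35 to 57 counts in oe-AQP1 against 17 to 33 in oe-NC (log2FC = 0.82, FDR = 0.0362). The part of these overlaps in the values of Sesn1 was not tested.

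Gdf15 (ENSMUSG00000038508, chr8:71082038-71091537, minus strand) encodes a secreted stress hormone of the TGF-β family, raised by p53 and also by the ATF4 and CHOP branch of the stress response. It was at 907, 893 and 859 CPM in oe-AQP1 and at 1060.6, 833 and 848 CPM in oe-NC. The oe-AQP1 samples lay between oe-NC sample 1, which was far higher, and the other oe-NC samples. The log2FC was -0.04 (SE 0.0776, FDR = 0.761) with all samples. Without oe-NC sample 1 it turned to 0.08 with an FDR of 0.00364, so 1 library decided both its direction and its call. Of 10 genes of the ATF4 and CHOP list, 2 were higher and 3 lower, with a median log2FC of -0.03. The shares over all genes tested were 16.0% higher and 16.6% lower.

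**Figure D2:**
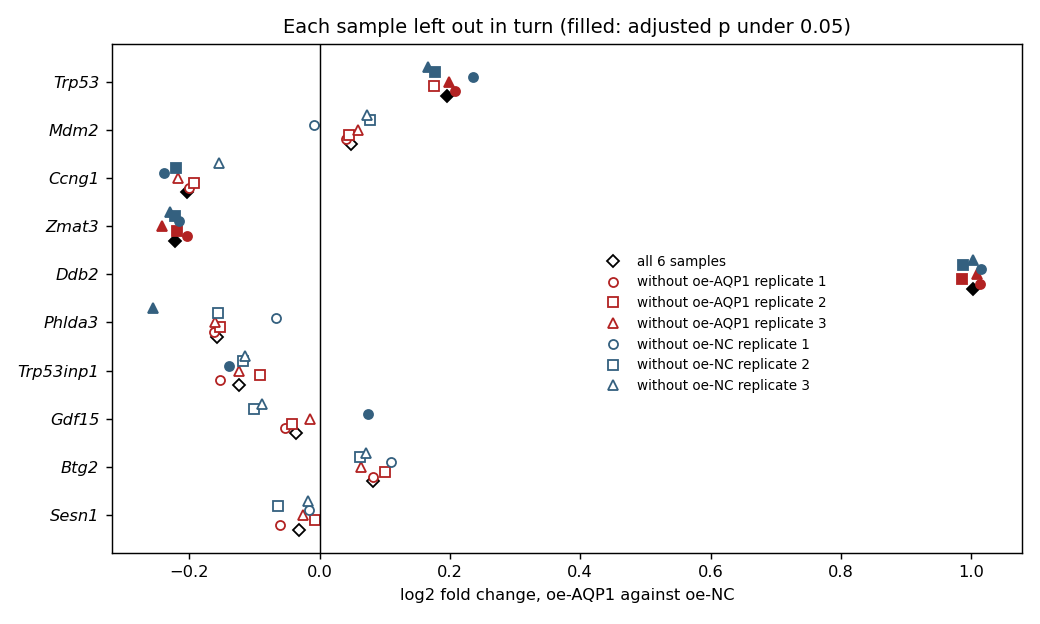
The log2FC of each of the 10 genes with all 6 samples (black) and with 1 sample left out at a time (red, oe-AQP1; blue, oe-NC), where filled symbols mark an adjusted p-value under 0.05. Ddb2 stays between 0.99 and 1.01, whereas Gdf15 and Mdm2 cross 0 when oe-NC sample 1 is left out.

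Without oe-NC sample 1, the 10 genes gave 3 higher (Trp53, Ddb2 and Gdf15) and 3 lower (Ccng1, Zmat3 and Trp53inp1). In the same fit 19.4% of the 16085 genes tested were higher and 20.7% lower, so more genes were called in general than with all samples. The directions of the 4 genes called with all samples were the same in that fit.

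**Figure D3:**
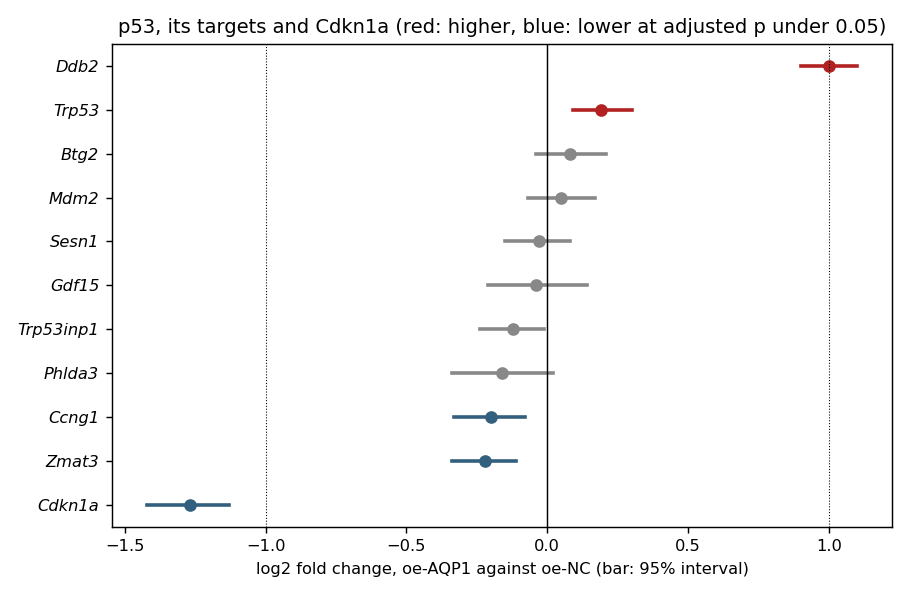
The log2FC of the 10 genes and of Cdkn1a with 95% confidence intervals from limma-voom, coloured where the adjusted p-value was under 0.05. Ddb2 stands at 1.00 and Cdkn1a at -1.27, and the other genes lie between -0.22 and 0.19.

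To compare genes with each other, levels were divided by exon length and are given as CPM per kilobase. That length counted once every exon base of any annotated transcript of the gene, 7379 bases for Trp53. It can exceed the length of the transcripts that the cells make, so the order between genes depends on this choice of length. Gdf15 was the most abundant, at 392 CPM per kilobase in oe-AQP1 and 404 in oe-NC. In oe-NC the next were Phlda3 (17.1), Trp53 (13.2), Ccng1 (10.8), Sesn1 (9.56 to 10.2 over samples), Mdm2 (9.15), Ddb2 (8.80), Trp53inp1 (5.56), Btg2 (4.19) and Zmat3 (3.04) CPM per kilobase. The ranges of Mdm2 and Ddb2 overlapped there, and no other neighbours in that order did. In oe-AQP1 the order after Gdf15 was Ddb2 (17.6), Phlda3 (15.2), Trp53 (15.1), Sesn1 (9.80), Mdm2 (9.45), Ccng1 (9.41), Trp53inp1 (5.11), Btg2 (4.44) and Zmat3 (2.61) CPM per kilobase. There Phlda3 overlapped Trp53, Sesn1 overlapped Mdm2, and Mdm2 overlapped Ccng1. Ddb2 thus stood at rank 7 of the 10 genes in oe-NC and at rank 2 in oe-AQP1, and the lowest 3 ranks were held by the same genes in both groups.

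**Figure D4:**
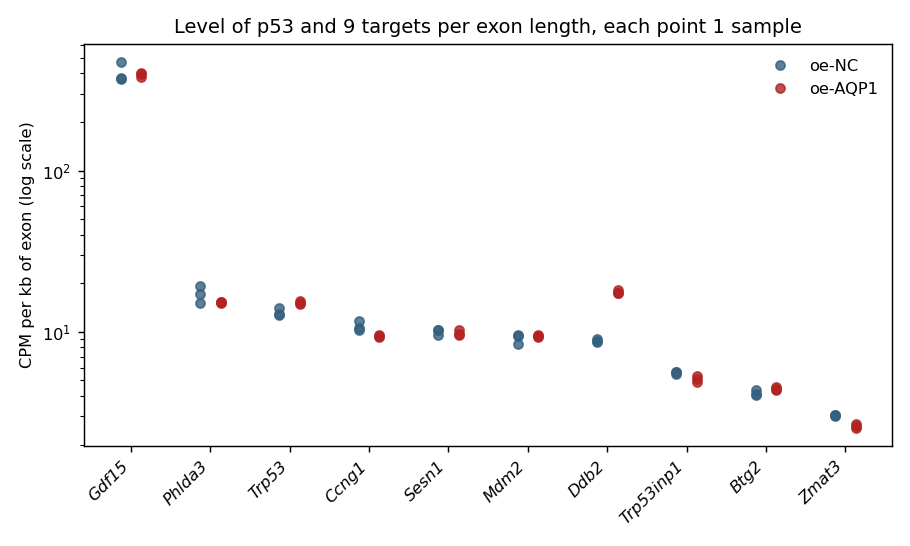
Level of each of the 10 genes in CPM per kilobase of exon on a log axis, with 1 point per sample. Gdf15 lies far above the rest in both groups, and Ddb2 changes place from 8.80 in oe-NC to 17.6 in oe-AQP1.

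Cdkn1a, which encodes the cell cycle inhibitor p21 and is the best known p53 target, moved against Ddb2. It was at 41.7, 37.7 and 34.8 CPM in oe-AQP1 and at 95.3, 88.5 and 91.2 CPM in oe-NC. The log2FC was -1.27 (SE 0.0645, FDR = 1.97e-07), and it was between -1.34 and -1.21 without each sample in turn. Of 12 tested genes that p21 is known to repress through the DREAM complex, 5 were lower in oe-AQP1 and 7 were not called, with log2FC from -0.47 (Ccnb2) to 0.05 (Cdk1) and a median of -0.08. In edgeR and in DESeq2 4 of them were lower, where 2594 and 2173 of all 15522 genes were lower. Of all genes tested by limma-voom, 16.6% were lower.

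A list of 51 other tested p53 targets had 8 higher and 12 lower in oe-AQP1, and 31 were not called, with a median log2FC of 0.01. Over all genes tested 16.0% were higher and 16.6% lower, the shares to set beside each count by role. Among 9 genes of cell cycle arrest, Cdkn1a among them, 3 were higher and 1 lower. Among 15 genes of apoptosis 3 were higher and 2 lower. The death receptor gene Fas rose (log2FC = 0.98, SE 0.251, FDR = 0.0134), but at low counts, 14 to 15 per oe-NC sample and 26 to 38 per oe-AQP1 sample. Of 5 genes of DNA repair and nucleotide supply, which share a role with Ddb2, 0 were called by limma-voom, edgeR or DESeq2 and 1 had an unadjusted p under 0.05. That gene, Xpc of the same repair pathway, was named after its value was seen (log2FC = 0.22, FDR = 0.0506). Of 13 genes of metabolism, redox control and autophagy, 7 were lower and 6 not called, with a median log2FC of -0.31. They included Gls2, a glutaminase (log2FC = -0.67, FDR = 0.000373), and Aldh4a1, an enzyme of proline breakdown (log2FC = -0.62, FDR = 0.000749). Sesn1, which also has a role in redox control, was not called. Of 9 genes of secreted and surface proteins, 2 were higher and 2 lower. Tap1, which carries peptides for antigen presentation and is also raised by interferon, was higher (log2FC = 1.98, FDR = 1.87e-09).

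**Figure D5:**
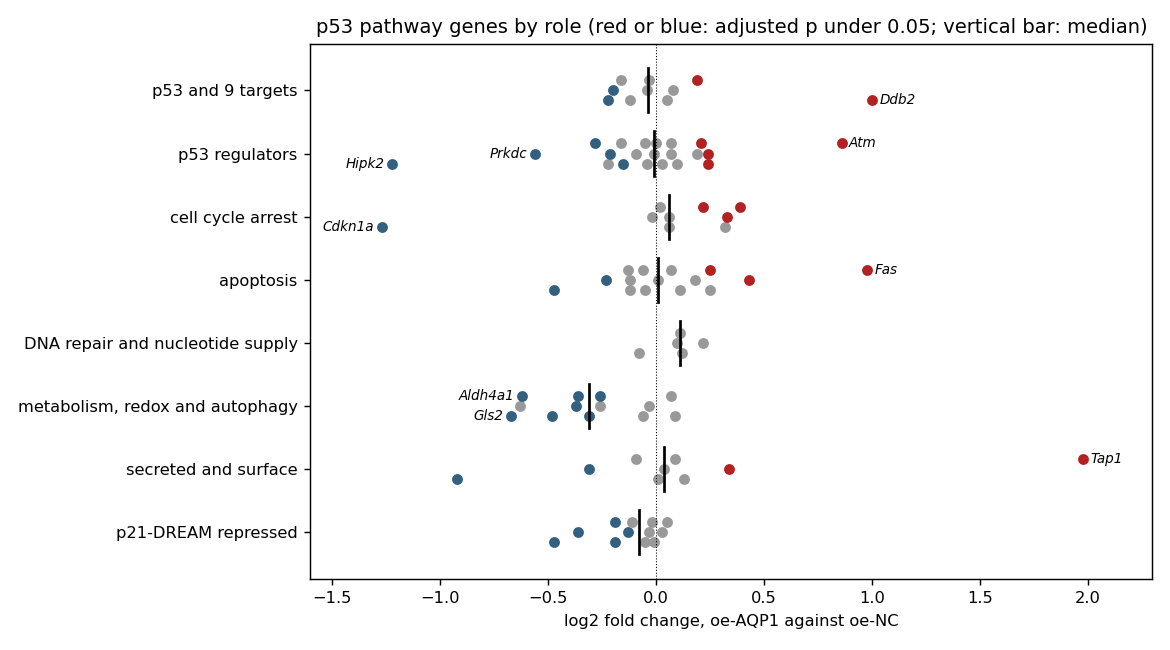
The log2FC of p53 pathway genes grouped by role, with 1 point per gene, red or blue where the adjusted p-value was under 0.05, and a bar at each group's median. The medians lie between -0.31 for metabolism, redox control and autophagy and 0.11 for DNA repair and nucleotide supply, and the named points are among the genes that passed the test with an absolute log2FC above 0.5.

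Of 21 tested regulators of p53, 4 were higher and 5 lower, with a median log2FC of -0.01. The shares over all genes tested were 16.0% higher and 16.6% lower. Mdm4, the partner of Mdm2 in holding p53 down, was higher (log2FC = 0.24, SE 0.0415, FDR = 0.00149), whereas Mdm2 was not called. Atm, a kinase that activates p53 after DNA breaks, rose (log2FC = 0.86, SE 0.0447, FDR = 2.5e-07). Prkdc, the catalytic subunit of another DNA damage kinase, fell (log2FC = -0.56, FDR = 1.29e-05). The ubiquitin ligase genes Cop1 and Rchy1 moved apart, with log2FC of -0.28 (FDR = 0.00486) and 0.24 (FDR = 0.0237). For both, oe-NC sample 1 was the control furthest from oe-AQP1. It was at 62.3 CPM against 54.1 and 55.4 CPM in the other oe-NC samples for Cop1, and at 29.6 against 35.3 and 33.4 CPM for Rchy1. Trp53bp1, which acts at DNA breaks, was slightly higher (log2FC = 0.21, FDR = 0.00221). Hipk2, a p53 kinase labelled in the plot by role because of its size, had a mean of 9.83 counts per sample (log2FC = -1.22, FDR = 0.0352).

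Of 66 tested genes that the deposited annotation places in the KEGG p53 signaling pathway, 15 were higher and 19 lower, with a median log2FC of -0.04. The shares over all genes tested were 16.0% higher and 16.6% lower. The pathway held 6 of the 10 genes. Among its genes outside the other lists, Shisa5 (log2FC = 1.31, FDR = 1.15e-09), Cyct (log2FC = 1.28, FDR = 0.00373) and Gadd45b (log2FC = 0.73, FDR = 4.18e-06) were higher. Cyct had low counts, 10 to 13 per oe-NC sample and 27 to 35 per oe-AQP1 sample. Ccng2, a relative of Ccng1, was lower (log2FC = -0.69, FDR = 1.47e-05). Ccng1 was lower too (log2FC = -0.20, FDR = 0.0194, limma-voom), but it was called in only 2 of the 6 fits without 1 sample.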

How the data were processed

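The authors deposited expected counts per gene for 6 RENCA samples, not scaled between samples, with group means that were not used here. The study's methods give GRCm39 as the genome, while the submitters' processing notes name GRCm38 and mm10, and also fastp, HISAT2, featureCounts and Subread. The versions, the order of the steps, the treatment of strand and the source of the fractional counts are not given in the sources used here. Samples were grouped by their labels. Expected counts were rounded, low-count genes were removed with filterByExpr of edgeR, given the groups (15522 of 78298 stayed), and oe-AQP1 was compared with oe-NC by limma-voom after TMM scaling (factors 0.993 to 1.006), with Benjamini-Hochberg adjustment over all genes tested and a threshold of 0.05. Tools were R 4.3.3, limma 3.58.1, edgeR 4.0.16 and DESeq2 1.42.0, and the procedure was tested on simulated data. Samples held 18385714 to 21920899 counts, and each of the 10 genes had between 467 and 20817 counts in a sample.

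Positions, exon lengths and sequences came from GRCm39 with GENCODE M39, in which 78168 of the 78298 identifiers were found. Decamers were searched by script, and only tested genes with a start in that annotation were used as background. The KEGG list came from the deposited annotation. The genes and gene lists were chosen with earlier results of these data known. All 10 genes were named. From the other p53 targets, up to 5 per role were named if called with an absolute log2FC of at least 0.5 and a mean of at least 20 counts, with Cdkn1a always named. From the regulators, up to 6 were named with an absolute log2FC of at least 0.2 and Mdm4 always, and from the KEGG pathway up to 4 that were in no other list. Of the genes this rule names, 1 is not reported here. The other lists gave counts and extremes. Alternatives were 2 other count tests, sample quality weights, 3 scalings, 2 filters, unrounded values, a replicate block, 2 thresholds and leaving out each sample.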

Additional observations from a re-analysis of the deposited data

How the results depend on the processing

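For Btg2, the gene of the 10 with the fewest counts (467 to 597), the 95% confidence interval of the log2FC ran from -0.04 to 0.21 with 3 samples a group. Under the other tests, scalings, filters, unrounded values and sample quality weights, Trp53, Ccng1, Zmat3 and Ddb2 kept their calls and directions. Under sample quality weights Gdf15 was at 0.053 (FDR = 0.295) and Trp53inp1 was called (FDR = 0.0351). Without oe-NC sample 1, Gdf15 was at 0.075 and Mdm2 at -0.009, and over the fits without 1 sample they ranged from -0.10 to 0.075 and from -0.009 to 0.077. With a log2FC above 1 also required, the 10 genes gave 1 higher and 0 lower, the other targets 1 higher and 1 lower, the regulators 0 higher and 1 lower, the KEGG pathway 3 higher and 2 lower, and all genes 812. At an FDR under 0.01 there were 2 higher and 1 lower of the 10 genes, 4 higher and 10 lower of the other targets, 3 higher and 3 lower of the regulators, 11 higher and 14 lower of the KEGG pathway, and 3142 of all genes. In the fits without 1 sample, the counts ranged from 1 to 3 higher and 1 to 3 lower for the 10 genes, 4 to 12 and 10 to 15 for the other targets, 3 to 7 and 2 to 6 for the regulators, and 11 to 16 and 15 to 25 for the KEGG pathway, with 3601 to 6456 of all genes called.

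Same-numbered samples of the groups did not deviate together (correlations of 0, 0.015 and -0.053 across genes). Deviations from the mean of so few samples cannot decide whether same-numbered samples shared a culture day or a batch. With the number as a replicate block, 2 of the 10 genes were higher and 2 lower, and 4825 of all genes were called.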
